A study of Mus musculus with 3 samples.

Results

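The cells described here were the untreated mouse embryonic stem cells with the least and the most Nanog transcript in a single control library. Every control barcode with at least 15000 unique molecular identifiers (UMIs, 1 tag per captured RNA molecule) and with 1 to 20% of its UMIs from mitochondrially encoded genes was kept. The kept cells were ranked by Nanog UMIs per 10000 UMIs, ties were ordered by total UMIs with the larger total first, and the lowest 10% (218 Nanog-low cells) were set against the highest 10% (218 Nanog-high cells). These 436 cells were 436 of the 2187 kept control cells and of the 6480 kept cells in the 3 libraries. They were chosen by a measured value, the Nanog count itself, so everything in the control contrast is a description with no test, and Nanog is left out of the results.

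The libraries came from E14 cells, an embryonic stem cell line of 129/Ola background, cultured on gelatin without a stated feeder layer in 15% fetal bovine serum and 1000 U/mL leukemia inhibitory factor (LIF). Treatment began 24 h after seeding. Control cells received 0.007% ethanol for 6 h, and the other cells received 250 µg/mL cycloheximide, which blocks translation elongation, in 0.007% ethanol for 3 or 6 h. Each group was 1 library of trypsinised and frozen cells, made with 10x Genomics 3′ v3 chemistry, so no comparison has a replicate check.

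Nanog is a homeodomain transcription factor of the naive pluripotency network. With Esrrb, Klf4, Tbx3, Tfcp2l1 and other factors it keeps embryonic stem cells self-renewing, while Pou5f1 (Oct4) and Sox2 are needed in naive and primed pluripotent cells alike. In serum and LIF, Nanog is known to vary widely from cell to cell, and cells that lose it can move towards the formative epiblast or towards primitive endoderm, the extraembryonic layer marked by Gata6, Gata4 and Sox17.

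Nanog-low cells held 0 to 3 Nanog UMIs each (median 1, with 94 cells at 0), and Nanog-high cells held 4 to 37 (median 12). Per 10000 UMIs the low cells spanned 0 to 0.316 and the high cells 2.23 to 11.97. At the lower limit, the last cell taken had 2 Nanog UMIs of 63382 and the next, left out, had 1 of 31590. At the upper limit, the last cell left out had 14 of 62790 and the first taken had 16 of 71696. The ranking therefore rests on few molecules per cell, and cells on either side of a limit were nearly alike.

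The control, 3 h and 6 h libraries held 127601369, 115188502 and 150987519 UMIs. The median depth was 37181 UMIs in Nanog-low cells, 41529 in Nanog-high cells and 43160 in all kept control cells, with medians of 5580, 5982 and 6038 genes. The median mitochondrial share was 4.41% in the low cells and 4.75% in the high cells. Summed over its cells, the low group held 9222829 UMIs and the high group 9763769. The control library shared 3 cell barcodes with each other library, and 2 of the Nanog-low cells and 0 of the Nanog-high cells were among them. Of the cells above 2 times the median UMI count, where doublets would be sought, 6 were Nanog-low and 8 were Nanog-high. No doublets were removed.

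The label of pluripotent stem cells held in both groups by their defining transcripts. Pou5f1 stood at 478 CPM (UMIs of the gene per 1000000 UMIs of the group; 95% exact Poisson interval 464 to 492) in Nanog-low cells and 543 CPM (528 to 558) in Nanog-high cells, and Sox2 at 187 and 230 CPM. A list of 10 fibroblast markers summed to 6.07 and 6.45 CPM, with Col3a1, Lum, Dcn and Postn at 0 UMIs in both groups. All intervals given here are 95% counting intervals and do not hold the spread between cells or between cultures.

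Across the 7212 genes with at least 10 CPM over all kept control cells, most differed little. The log2 ratio of CPM (Nanog-low over Nanog-high, with a prior of 0.5 counts) had a median of -0.066, a 5th percentile of -0.49 and a 95th percentile of 0.27. Past 1.5-fold, 44 genes were higher in Nanog-low cells (0.61% of the genes compared) and 196 were lower (2.72%). Past 2-fold, 7 were higher (0.0971%) and 3 were lower (0.0416%). The split depended on the scaling: with TMM factors, 71 genes were higher and 120 lower past 1.5-fold, and with the mean number of UMIs per cell used instead of CPM, 27 were higher and 331 lower. TMM factors moved the median of all genes to 0.0028 and mean UMIs per cell moved it to -0.15, so each shifted every ratio by under 0.1.

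The set of genes past 1.5-fold was also sensitive to a ranking on fewer UMIs. When each cell was thinned to 15000 UMIs for the ranking alone and all its counts were compared, 13 genes were higher and 37 lower, among them 10 of the 44 and 28 of the 196 counted above. That ranking shared 86 low and 115 high cells with the first, and since 442 cells then had 0 Nanog UMIs, its 218 low cells were the first of those in file order. Klf4 (-0.59), Tbx3 (-0.65) and Kit (-0.72) were still past 1.5-fold, Esrrb (-0.47) and Zfp42 (-0.33) were lower by less, and the naive list median was -0.30. With the first ranking and thinned counts in the comparison alone, 34 of the 44 and 141 of the 196 stayed past 1.5-fold; with both thinned, 13 and 50 did.

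**Figure D1:**
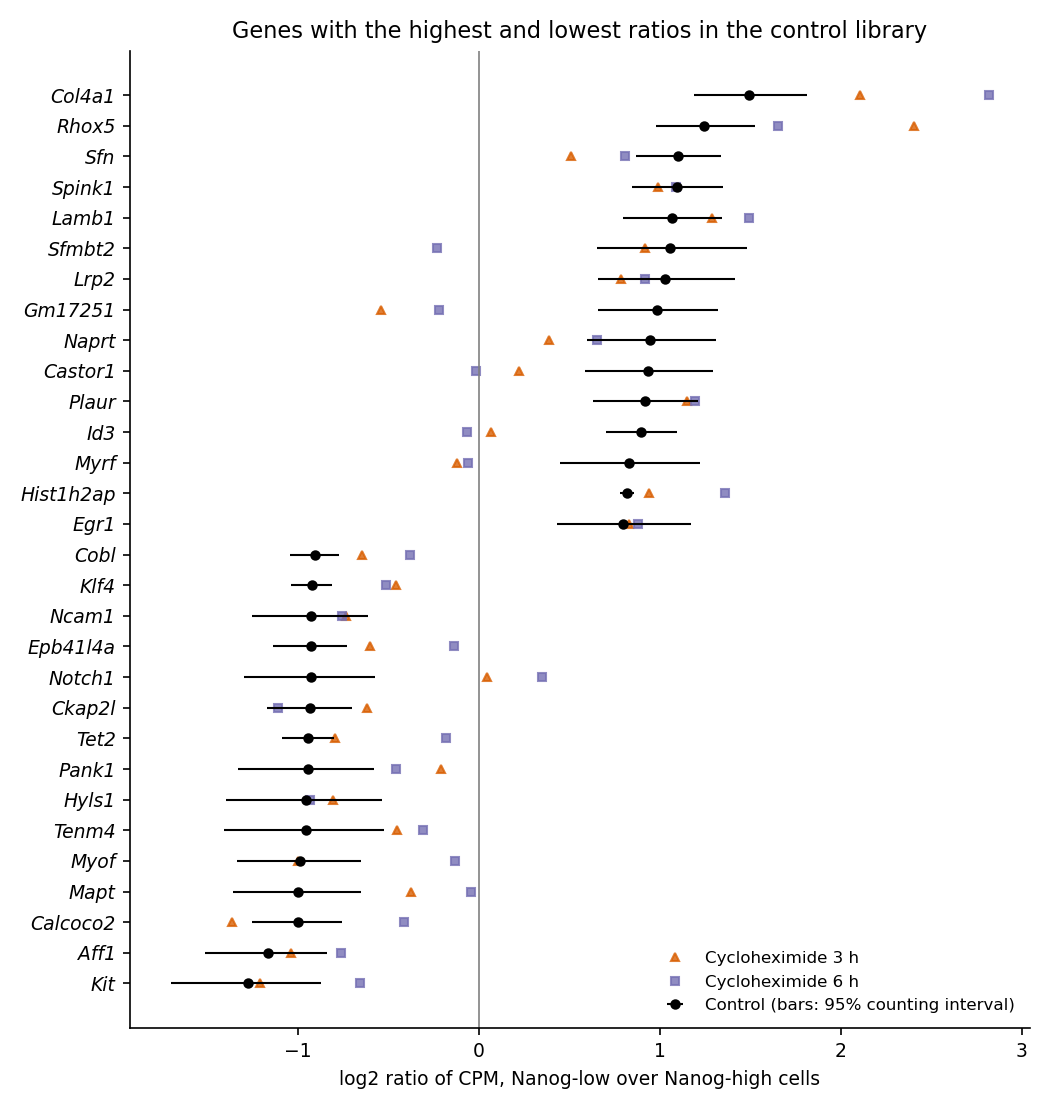
The 15 genes with the highest and the 15 with the lowest log2 ratios of CPM (x axis, Nanog-low over Nanog-high cells) among genes whose counting interval left out equality. Black points and bars give the control library with 95% counting intervals, triangles the 3 h and squares the 6 h cycloheximide library split by the same rule; Kit stands lowest at -1.27 and Col4a1 highest at 1.49 in the control.

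Naive pluripotency genes were lower in the Nanog-low cells, each of those past 1.5-fold by under 2-fold. Klf4, a LIF-responsive Krüppel-like factor (ENSMUSG00000003032, chromosome 4, 55527143 to 55532466, of GRCm38), gave 914 UMIs in Nanog-low and 1836 in Nanog-high cells. Its level was 99.1 CPM (92.8 to 106) against 188 CPM (180 to 197), a log2 ratio of -0.92 (-1.04 to -0.81). Esrrb, the orphan nuclear receptor that is a direct partner of Nanog in self-renewal (chromosome 12, 86361117 to 86521628), gave 442 and 833 UMIs, or 47.9 and 85.3 CPM (-0.83, interval -1.0 to -0.66). Zfp42 (Rex1), a widely used marker of the naive state (chromosome 8, 43295063 to 43306980), gave 3542 and 5316 UMIs, or 384 and 544 CPM (-0.50, -0.57 to -0.44). All 3 markers that accompany Nanog were thus lower in the cells chosen for low Nanog.

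The wider naive list had mostly the same direction, with 15 of 17 ratios below 0, while 2755 of all 7212 genes compared lay above 0. Of its 19 genes 17 passed the floor of 10 CPM, 7 were lower past 1.5-fold, 1 was higher, and the median log2 ratio was -0.50, beside -0.066 for all genes compared. Among all genes compared, 2.72% were lower and 0.61% higher past 1.5-fold. The lower genes were Klf4, Esrrb, Tet2 (63.4 against 122 CPM, -0.94), Tbx3 (71.9 against 133 CPM, -0.89), Fgf4 (43.7 against 78.0 CPM, -0.84), Jam2 (60.7 against 108 CPM, -0.84) and Tfcp2l1 (63.2 against 101 CPM, -0.67). Tet2 encodes a 5-methylcytosine dioxygenase, Tbx3 a T-box factor, Fgf4 the main FGF ligand of these cells and Tfcp2l1 a target of LIF and STAT3. Klf2, at 156 and 220 CPM, and Nr5a2, at 21.3 and 31.8 CPM, were lower by less than the 1.5-fold limit. Nr0b1 (Dax1) lay at 91.2 and 87.9 CPM and did not differ beyond counting error (0.05, -0.09 to 0.19). The member higher in Nanog-low cells was Stmn2, which encodes a microtubule-binding stathmin, at 106 against 67.2 CPM (0.66). Prdm14 and Dppa3 stayed under the floor, with 22 and 60 UMIs for Prdm14 and 42 and 20 for Dppa3 in low and high cells.

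General pluripotency factors differed less. Of 15 genes compared, 1 passed 1.5-fold, Zfp57, a guardian of imprinted methylation, at 169 against 255 CPM (-0.59), and the list median was -0.18. Zfp57 lay at the limit and did not pass it under 10 of the alternative settings. Among them were TMM factors (-0.52), equal shares of called phases (-0.44) and removal of 5 endoderm-rich cells described further on (-0.56). The log2 ratio was -0.18 (-0.24 to -0.13) for Pou5f1 and -0.30 (-0.39 to -0.21) for Sox2. Zfp281 (-0.38) and Rif1 (-0.34) were lower, whereas Utf1 (517 and 496 CPM) and Dppa4 (97.7 and 98.4 CPM) were nearly level between the groups. Of the 15 ratios 14 were below 0, while 2755 of all 7212 genes compared lay above 0.

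The differences in the naive genes were graded over the whole range of Nanog. When the 2187 cells were divided into 10 rank groups of 218 or 219 cells, Klf4 stood at 98.9 CPM in the lowest, 141 in the middle (group 5) and 188 in the highest. Esrrb went from 48.0 through 62.8 to 85.3 CPM, and Tbx3 from 72.3 through 93.5 to 133 CPM at the same places. The steps of single genes were not all in 1 direction, and Klf4 stood at 128 CPM in group 6. The summed naive list was higher at every step, from 1911 to 2601 CPM. Between groups 9 and 10 alone, Klf4 stood at 155 and 188 CPM and Esrrb at 71.0 and 85.3 CPM. Pou5f1 was lowest in the lowest group (478 CPM) and lay between 518 and 549 CPM in the other 9.

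**Figure D2:**
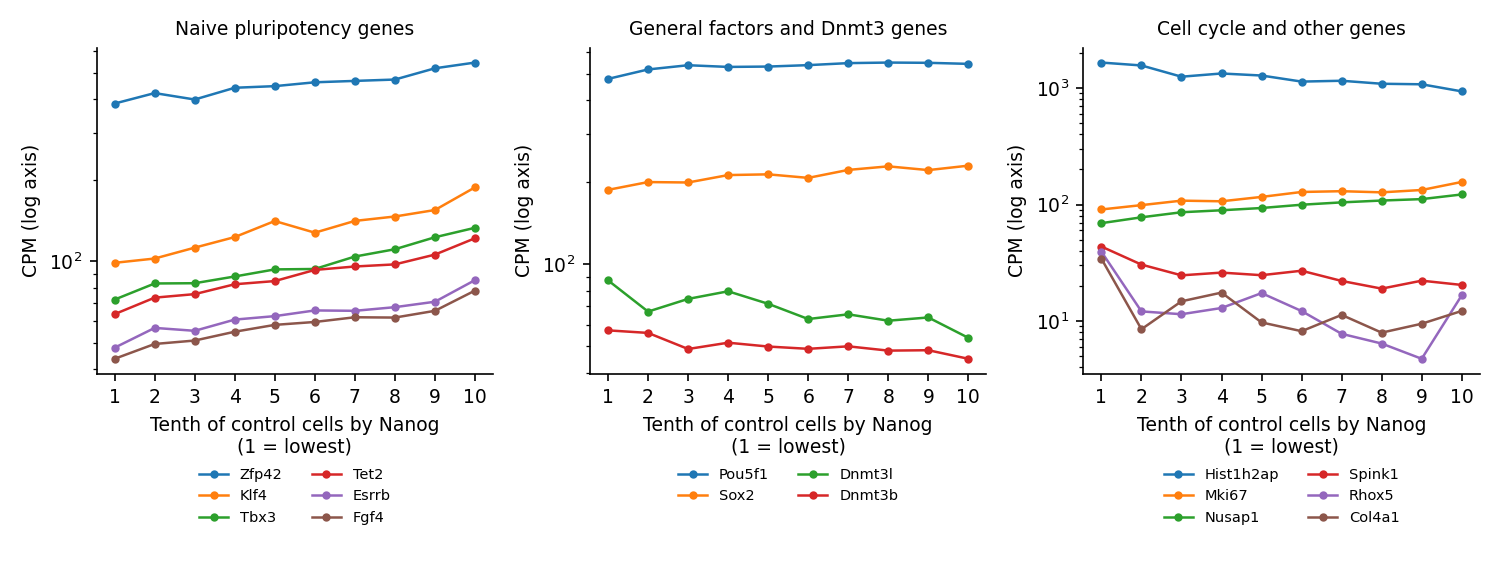
Level in CPM (y axis, log scale) in 10 equal groups of control cells ordered by Nanog (x axis, 1 is lowest) for naive genes, for general factors with Dnmt3 genes, and for cell cycle and other genes. Klf4, Esrrb and Tbx3 are graded over the range, whereas Col4a1 stands at 34.3 CPM in group 1 and between 7.93 and 17.5 CPM in the other 9.

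The cells of the 2 groups overlapped in these transcripts. At 15000 UMIs per cell, the summed naive list gave 3 to 61 UMIs in Nanog-low cells (quartiles 20, 27 and 34) and 17 to 70 in Nanog-high cells (quartiles 32, 37.5 and 44). Of the 218 low cells, 143 (65.6%) lay below the first quartile of the high cells, 23 lay below every high cell and 36 reached the high median. The median of the cells between the groups was 32. Without thinning, the medians per 10000 UMIs were 18.9 in low and 25.3 in high cells. Single genes overlapped more: Zfp42 had a median of 5 UMIs in low and 8 in high cells, and Esrrb 0 and 1. Pou5f1 had medians of 7 and 8. The summed counts showed a shift of the whole distribution, with no gap between the groups.

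**Figure D3:**
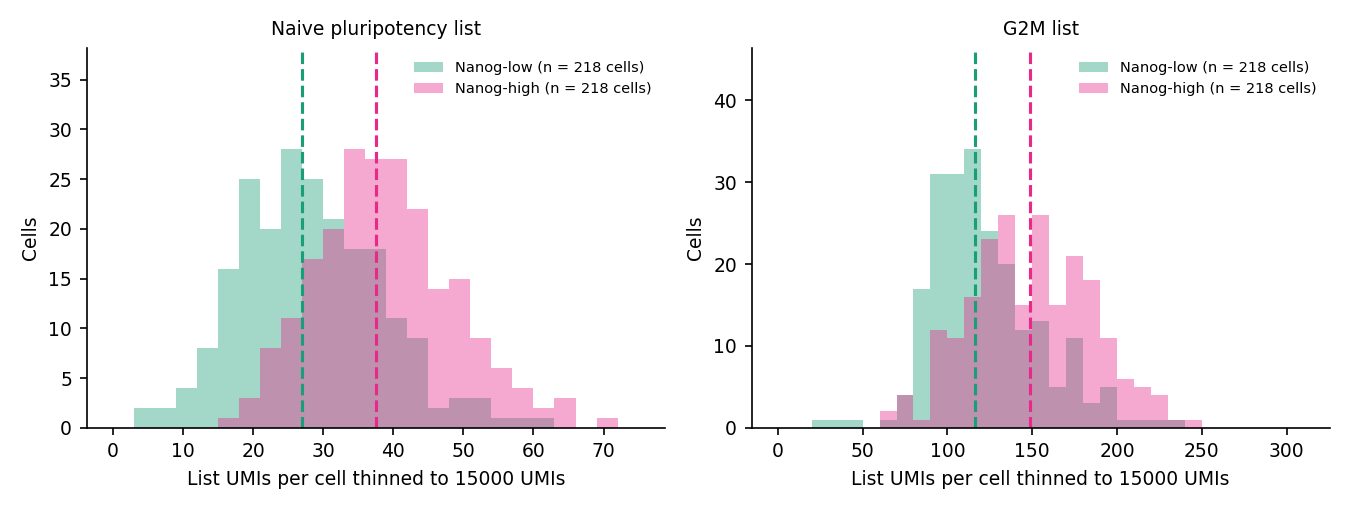
Number of control cells (y axis) by summed UMIs of the naive pluripotency list (left) and of the G2M list (right) per cell after thinning to 15000 UMIs (x axis), for 218 Nanog-low and 218 Nanog-high cells, with medians as dashed lines. The medians are 27 and 37.5 UMIs for the naive list and 116 and 149 for the G2M list, and the distributions overlap in both panels.

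The regulators of DNA methylation split by direction. Tet2 was lower in Nanog-low cells, and Tet1 was lower by less (292 against 382 CPM, -0.39). Dnmt3l, the cofactor of the de novo methyltransferases, was higher (87.5 against 53.7 CPM, 0.70, interval 0.54 to 0.87). Dnmt3b was higher by less than 1.5-fold (57.2 against 45.0 CPM, 0.35), as was Dnmt3a (54.5 against 47.9 CPM, 0.19), while the maintenance enzyme Dnmt1 stood at 147 and 168 CPM (-0.19). Of the 8 list members compared, Dnmt3l was the 1 higher and Tet2 the 1 lower past 1.5-fold, beside 0.61% and 2.72% of all genes compared. With cells thinned for the ranking alone neither passed (Dnmt3l 0.30, Tet2 -0.49).

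Formative and primed epiblast genes, a list that also holds the Dnmt3 genes, had no common direction past 1.5-fold. Of 19 genes 8 passed the floor, with 1 higher (Dnmt3l), 1 lower (Foxd3, a forkhead factor of the early epiblast, 11.7 against 21.6 CPM, -0.88) and a median of 0.20. The shares of all genes compared were 0.61% higher and 2.72% lower. Otx2, a driver of the exit from naive pluripotency, gave 29 UMIs in low and 25 in high cells. Fgf5, the usual marker of primed epiblast, gave 0 UMIs in both. Primitive streak genes were near the limit of detection, with T at 2 and 1 UMIs. At this depth, Fgf5 was not detected in either group and T was at the level of single molecules.

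Few signalling genes passed 1.5-fold. In the LIF list of 14 genes (median -0.15), the lower pair Klf4 and Tfcp2l1 were also members of the naive list, Junb was higher (65.2 against 41.5 CPM, 0.65) and Socs3, the feedback inhibitor of STAT3, stood at 43.2 and 55.1 CPM (-0.35). Of 12 FGF/ERK genes, Fgf4 was lower and Egr1, an ERK-responsive zinc finger factor, was higher (18.0 against 10.3 CPM, 0.80, interval 0.43 to 1.17), whereas the feedback genes Spry2 (91.1 and 89.4 CPM) and Spry4 (54.3 and 49.6 CPM) were close to level. Of 12 immediate early genes, Egr1, Junb and Klf6 were higher past 1.5-fold and 0 were lower, with a median of 0.29. The share higher among all genes compared was 0.61%, and the share lower was 2.72%. Egr1 passed under every alternative run (0.66 to 0.94). Junb did not under 5 of them and Klf6 under 8, and with equal shares of called phases they stood at 0.49 and 0.41. Without the endoderm-rich cells Klf6 stood at 0.49. Among 10 Nodal pathway genes, Inhbb, which encodes an activin subunit, was lower (27.2 against 42.4 CPM, -0.64), and the Nodal co-receptor Tdgf1 stood at 309 and 420 CPM (-0.44). The Nodal list median was -0.26. Of 4 Wnt genes compared 0 passed 1.5-fold, and their median was -0.33.

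The Id genes are BMP targets that encode inhibitors of helix-loop-helix factors. Of the 7 genes compared in that list, Id3 and Id2 were higher past 1.5-fold and 0 were lower, and the list median was -0.066. The shares of all genes compared were 0.61% higher and 2.72% lower. Id3 stood at 65.2 against 34.9 CPM (0.90, interval 0.71 to 1.10), Id2 at 48.7 against 28.7 CPM (0.76) and Id1 at 296 against 204 CPM (0.54). At 15000 UMIs per cell, 134 low and 138 high cells had 0 Id3 UMIs, and 8 low cells exceeded every high cell. The 22 cells with the most Id3 held 56.6% of its UMIs in the low group and 46.8% in the high group. With cells thinned for the ranking alone, Id3 was at 0.11, Id2 at 0.076 and Id1 at 0.018, and with thinned counts in the comparison alone they were at 0.84, 0.86 and 0.52. Bmp4 itself stood at 89.9 and 94.1 CPM.

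Many of the extreme genes were outside the lists. The lowest ratios were those of Kit, the stem cell factor receptor, with 70 against 180 UMIs (7.59 against 18.4 CPM, -1.27, interval -1.70 to -0.87; chromosome 5, 75574916 to 75656722, of GRCm38), of Aff1, a subunit of the super elongation complex (-1.17, -1.51 to -0.84), and of Calcoco2, an autophagy receptor (-1.0). Notch1 (10.5 against 20.1 CPM, -0.93), the tau gene Mapt (-1.0), Ncam1, a neural cell adhesion molecule (-0.93), Cobl, an actin nucleator (73.1 against 137 CPM, -0.91), Myof (-0.99), Tenm4 (-0.96), Hyls1 (-0.95), Pank1 (-0.95) and Epb41l4a (-0.93) were also among the 15 lowest. Several of these values varied with the setting: with cells thinned for the ranking alone Tenm4 stood at -0.22, with thinned counts in the comparison alone Myof stood at -0.43, with cells ranked within phases Hyls1 stood at -0.38, and with cells thinned for both steps Pank1 stood at -0.42 and Mapt at -0.52. Over the rank groups Kit went from 7.56 to 18.4 CPM, and the largest step lay between groups 9 and 10 (13.9 and 18.4 CPM).

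Among the highest, Sfn (14-3-3 sigma) gave 450 against 222 UMIs (48.8 against 22.7 CPM, 1.10, interval 0.87 to 1.34). Spink1, a secreted trypsin inhibitor, gave 402 against 199 UMIs (1.09, 0.85 to 1.35), and Plaur, the urokinase receptor, 275 against 154 (0.92). Sfn was highest in rank group 1 (48.6 CPM) and lay between 21.1 and 29.9 CPM in the other 9. With cells thinned for the ranking alone, Plaur stood at 0.60, Spink1 at 0.48 and Sfn at 0.025. Rhox5, an X-linked homeobox gene, stood at 39.5 against 16.6 CPM (1.25), but its transcripts came from few cells: at 15000 UMIs, 204 low cells and 207 high cells had 0 UMIs, and the highest cell of each group had 17 and 18. Sfmbt2 (1.06), Lrp2 (1.03), the noncoding gene Gm17251 (0.98), Naprt (0.95), Castor1 (0.93) and Myrf (0.83) completed the highest genes outside the lists. Over all kept control cells, Sfmbt2 (10.28 CPM) and Gm17251 (10.18 CPM) lay just above the floor of 10 CPM. In rank group 1 they stood at 15.99 and 23.88 CPM, and in the other 9 at 7.61 to 12.64 and 5.26 to 13.09 CPM. Both passed the floor with the help of the group where they were high, so their place among the highest genes was partly set by the floor. How reads shared with overlapping or opposite transcripts were counted is not given in the sources used here, so the value of Gm17251 is uncertain. Its level was 48.6 CPM in the free RNA of barcodes with few UMIs, against 10.2 CPM in all kept control cells, and its ratio ran from 0.54 with extremes of 20% to 2.24 without cells above 2 times the median UMIs. Castor1, Myrf and Lrp2 stood at 0.51, 0.54 and 0.52 with extremes of 20%.

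The sums of primitive endoderm genes were higher in Nanog-low cells, and 5 cells held most UMIs of several of these genes, though not of all. Col4a1, the type IV collagen chain of the endodermal basement membrane (chromosome 8, 11198423 to 11312826), had the highest ratio of all genes compared, with 317 against 119 UMIs (34.4 against 12.2 CPM, 1.49, interval 1.19 to 1.81). Lamb1, a laminin chain of the same membrane, stood at 36.1 against 17.2 CPM (1.07). Of the 17 list genes only 5 passed the floor, with 2 higher, 0 lower and a median of 0.39. The shares of all genes compared were 0.61% higher and 2.72% lower. Below the floor, the low and high cells gave 81 and 9 UMIs for the lineage factor Gata6, 52 and 6 for Gata4, 67 and 5 for the endocytic adaptor Dab2, 128 and 1 for Srgn and 49 and 0 for Foxq1.

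The UMIs of this list were unevenly spread over the cells. Per 15000 UMIs, 5 Nanog-low cells had 39.8, 49.2, 54.2, 198 and 218 list UMIs, while every other low cell had at most 15.7 and every high cell at most 11.5. A limit of 20, set after this gap was seen, marked these 5 low cells, 3 of the 1751 cells between the groups and 0 high cells. Between 12 and 20 lay 2 low cells and 5 of the cells between the groups. At the median the order was the opposite of that of the sums, with 3 list UMIs in low and 4 in high cells at 15000 UMIs. The higher sum was thus a property of few cells and not of the median Nanog-low cell.

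Those 5 cells held 2.95% of the UMIs of the Nanog-low group, but 76.0% of its Col4a1, 87.7% of its Gata6, 94.0% of its Dab2, 97.7% of its Srgn, 100% of its Sox17, 39.0% of its Lamb1 and 22.5% of its Rhox5. For the list genes with the most UMIs in the low group the shares were lower, at 29.8% of Sparc and 19.1% of Lamc1. The cell with the most list UMIs (44191 UMIs in all) had 113 of Col4a1, 50 of Dab2 and 11 of Gata6, with 0 of Nanog, Sox2 and Esrrb, 1 of Zfp42 and 2 of Pou5f1. The second (25342 UMIs) had 64 of Col4a1, 134 of Sparc and 0 of Gata6, and still 12 of Pou5f1 and 18 of Klf4. The third (56194 UMIs) had 27 of Gata6, 17 of Pou5f1 and 3 of Zfp42. The largest (115171 UMIs, the only one of the 5 above 2 times the median) had 10 of Gata6 together with 21 of Sox2, 22 of Zfp42 and 3 of Nanog. These cells therefore differed among themselves in how far endodermal transcripts stood beside pluripotency transcripts. Among the 3 cells between the groups, 2 exceeded 2 times the median UMIs.

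Without these 5 cells 32 genes were higher and 208 lower past 1.5-fold, among them 31 of the 44 and 180 of the 196. Without them Col4a1 was lower in the Nanog-low cells (-0.52, interval -0.96 to -0.09), Gata6 gave 10 against 9 UMIs, and Lamb1 stood at 0.40. The median of the 5 list genes compared went from 0.39 to -0.52. The cells left out were chosen by this same list and lay only in the low group. A fall in the ratios of its genes was therefore fixed by the choice, and the interval of Col4a1 does not hold that choice. Spink1 (0.94), Sfn (1.11), Plaur (0.84) and Rhox5 (0.92) were still past 1.5-fold, as were Klf4 (-0.97) and Esrrb (-0.80).

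**Figure D4:**
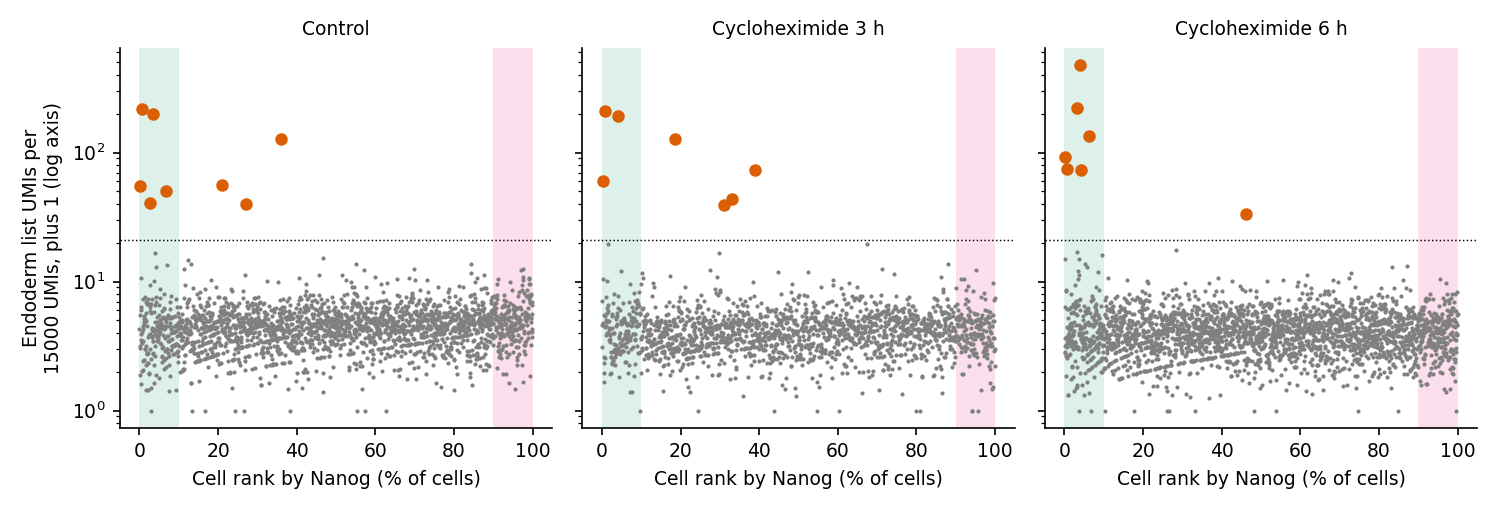
Summed primitive endoderm list UMIs per 15000 UMIs, plus 1 (y axis, log scale), in every kept cell against its rank by Nanog (x axis, percent of cells) in the 3 libraries, with the Nanog-low range shaded green and the Nanog-high range pink. Orange points are cells at or above the dotted limit of 20 list UMIs: 5, 3 and 6 lie in the Nanog-low range of the control, 3 h and 6 h libraries and 0 in the Nanog-high range of each.

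Trophectoderm and neural lists added little. The keratin gene Krt8 gave 281 and 244 UMIs (0.29), and the 5 endoderm-rich cells held 35.9% of its UMIs in the low group. Of the neuroectoderm list, Ncam1 and Tubb3 passed the floor, and both were lower in Nanog-low cells (-0.93 and -0.47). Transcripts of the 2-cell-like state gave 67 UMIs in Nanog-high cells and 1 in Nanog-low cells, and all 67 came from a single cell of 27558 UMIs, 40 of them from Zscan4d.

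The cell cycle differed between the groups. Of 52 G2M genes, 16 were lower in Nanog-low cells past 1.5-fold and 0 were higher, with a median log2 ratio of -0.40. Over all genes compared, 2.72% were lower and 0.61% higher, and the median was -0.066. Mki67, the proliferation antigen, stood at 90.4 and 156 CPM (-0.79), the spindle protein gene Nusap1 at 69.3 and 122 CPM (-0.82) and Ckap2l at 24.6 and 47.0 CPM (-0.93). Of 41 S phase genes 0 passed 1.5-fold in either direction, and their median was 0.00069. At 15000 UMIs per cell the G2M list had a median of 116 UMIs in low and 149 in high cells, and the S phase list 85 and 83. Without thinning, the medians per 10000 UMIs were 78.1 and 99.6 for the G2M list and 54.9 and 56.0 for the S phase list, so no order was read for S phase.

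Phase calls from these lists put 154 Nanog-low cells (70.6%) in S and 60 (27.5%) in G2M, against 80 (36.7%) and 138 (63.3%) of the Nanog-high cells. In G1 were 4 Nanog-low and 0 Nanog-high cells. Since the S phase list was nearly level between the groups, the larger S share was not read as more S phase transcript in Nanog-low cells. The part of free RNA and of the depth difference in these calls was not tested. To make the shares of the called phases equal, the lowest and highest 10% were also taken within each phase. The naive list then kept a median of -0.44, with Klf4 at -1.02, Tbx3 at -0.89, Esrrb at -0.79 and Zfp42 at -0.47. The G2M median was -0.24, and 38 genes were higher and 128 lower past 1.5-fold. The naive transcripts were thus lower at equal shares of the called phases too, but the G2M list also stayed lower, beside a median of -0.067 for all genes. Position within a called phase was therefore not held equal, and its part in the naive values was not tested.

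Replication-dependent histone genes went the other way from the G2M genes. Of 67 genes 19 passed the floor, 3 were higher past 1.5-fold and 0 were lower, with a median of 0.23. Among all genes compared, 0.61% were higher and 2.72% lower. Hist1h2ap was at 1653 against 937 CPM (0.82) and Hist1h2ae at 392 against 246 CPM (0.67). With equal shares of the called phases, Hist1h2ap was at 0.38 and the list median turned to -0.096. Histone copies are nearly identical and their mature transcripts mostly lack poly(A) tails, and how reads shared between copies were counted is not given, so single members are uncertain.

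Ribosomal protein genes showed a small difference across nearly all members. Of 83 genes 81 were above 0, against 2755 of the 7212 genes compared, 0 passed 1.5-fold, and the median log2 ratio was 0.11, with Rpl23 at 0.26 and Rpl19 at 0.25. It stayed above 0 in the alternatives run, between 0.025 with mean UMIs per cell and 0.18 with TMM factors. The 13 p53 targets had a median of 0.16 with 0 genes past 1.5-fold, Perp being highest (47.8 against 32.0 CPM, 0.58). Mitochondrially encoded genes (-0.081), heat shock chaperones (-0.099) and the integrated stress response list (0.014) lay near the median of all genes. In the integrated stress response list 1 of 13 genes passed 1.5-fold, Ddit4, higher at 0.61, and it did not pass under 4 of the alternatives. Of 17 glycolysis genes, 1 passed 1.5-fold, the glucose transporter Slc2a3, lower at 147 against 226 CPM (-0.62).

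**Figure D5:**
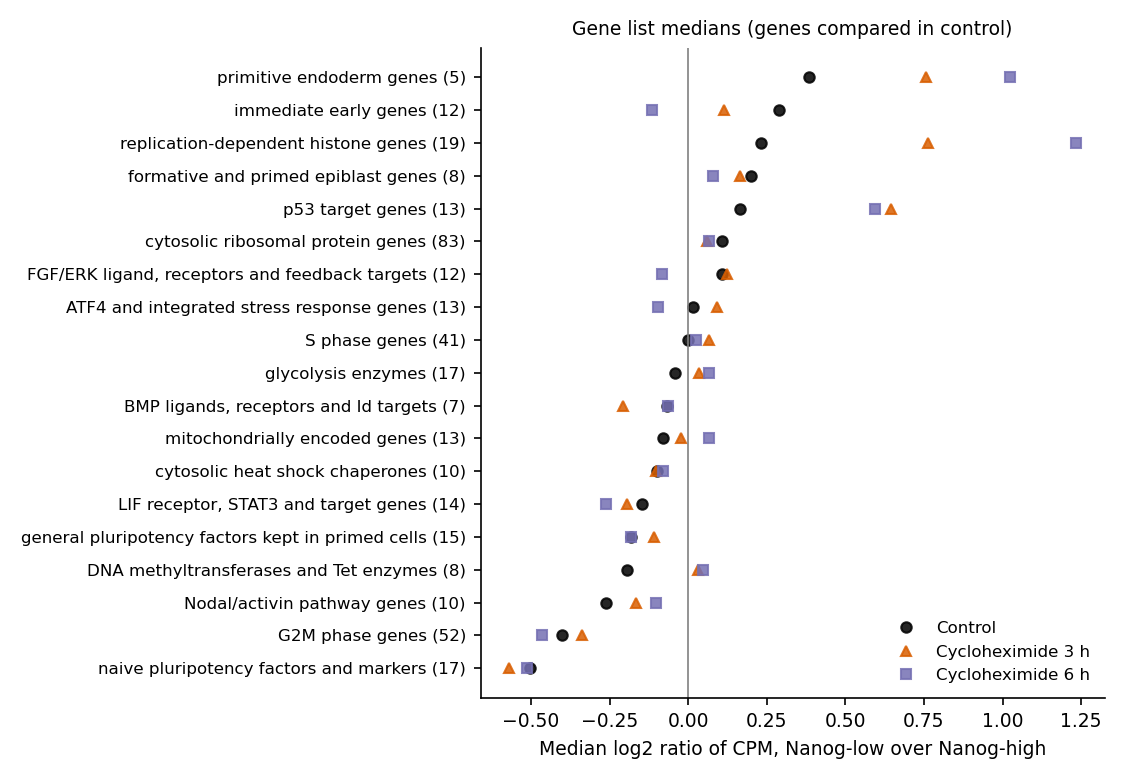
Median log2 ratio of CPM (x axis, Nanog-low over Nanog-high) of each gene list with at least 5 genes compared in the control (y axis, number of genes in parentheses), in the 3 libraries split by the same rule. The naive list lies at -0.50, -0.57 and -0.51, while the histone list lies at 0.23, 0.76 and 1.23.

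The same rule was applied within the cycloheximide libraries, whose cells had no part in choosing the control groups. It gave 173 cells a side of 1739 at 3 h and 255 a side of 2554 at 6 h. Past 1.5-fold, 116 genes were higher (1.51%) and 193 lower (2.52%) of 7665 at 3 h, and 140 were higher (1.8%) and 332 lower (4.27%) of 7773 at 6 h. Of the 196 genes lower in control Nanog-low cells, 177 were compared at 3 h, where 169 had ratios below 0 (57.9% of all genes did) and 70 passed 1.5-fold. At 6 h, 171 were compared, 160 were below 0 (61.8% of all genes) and 66 passed. Of the 44 higher genes, 36 of 39 were above 0 at 3 h (42.1% of all genes) and 18 passed 1.5-fold. At 6 h these counts were 23 of 34 (38.2% of all genes) and 15. The direction seen in the control thus held for most of these genes in libraries that had no part in the choice, and the differences between libraries were not tested.

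The naive list had 14 of 17 ratios below 0 in each cycloheximide library, beside 57.9% of all genes compared at 3 h and 61.8% at 6 h. Klf4 had ratios of -0.46 at 3 h (142 against 195 CPM) and -0.51 at 6 h (88.2 against 126 CPM), Esrrb -0.61 and -0.69, Zfp42 -0.57 and -0.88, Tbx3 -0.65 and -0.88, and Fgf4 -0.93 and -1.20. Klf5, at -0.27 in the control, stood at 0.10 and 0.19, and Tet2 stood at -0.79 and then -0.18. Sox2 was at -0.36 and -0.76, Pou5f1 at -0.17 at both times. Dnmt3l (0.69 and 0.78), Stmn2 (0.60 and 0.81), Spink1 (0.99 and 1.09) and Egr1 (0.83 and 0.88) were higher in Nanog-low cells each time. At 6 h Egr1 lay under the floor of 10 CPM, at 4.93 and 2.67 CPM in rank groups 1 and 10. Among the Id genes, Id1 stood at -0.21 and -0.70, Id2 at 0.39 and -0.05, and Id3 at 0.07 and -0.06.

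Endoderm-rich cells were on the Nanog-low side in each library, with 3 in the low group, 4 between and 0 high at 3 h, and 6, 1 and 0 at 6 h. Among the cells between the groups, 4 of 4 at 3 h and 1 of 1 at 6 h exceeded 2 times the median UMIs of their library. Col4a1 was higher in Nanog-low cells at 3 h (2.10) and at 6 h (2.82), the latter under the floor of 10 CPM and so outside the genes compared. At 3 h Col4a1 stood at 29.6 CPM in rank group 1, 18.6 in group 2 and 18.7 in group 4. In the remaining groups it lay between 5.18 and 6.84 CPM, so it passed the floor with the help of the group where it was high. Without the endoderm-rich cells, again chosen by the list that holds Col4a1, its ratios at 3 h and 6 h were -0.25 (-0.84 to 0.33) and 0.10 (-0.50 to 0.71). Gata6 at 3 h differed, with 53 UMIs left in the Nanog-low cells after they were removed (6.63 CPM, against 0.464 CPM in Nanog-high cells). The p53 targets had medians of 0.64 and 0.59, with 9 and 8 of 16 genes higher past 1.5-fold, among them Mdm2 (0.94 and 0.64; 0.42 in the control). The histone list had 29 and 39 of 40 genes higher past 1.5-fold. Of all genes compared, 1.51% were higher at 3 h and 1.8% at 6 h. The part of the phase shares in these list values was not tested for the cycloheximide libraries.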

How the data were processed

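The authors deposited unnormalised UMI counts for all barcodes of each library; the submitters' processing notes name Cell Ranger 4.0.0 and mm10, and the annotation and the handling of shared reads are not given in the sources used here. Gene positions were taken from GENCODE M21 on GRCm38, in which 32235 of 32285 identifiers matched. Counts were summed over the cells of each group and scaled to CPM, and log2 ratios used a prior of 0.5 counts. Intervals are exact Poisson (levels) and exact conditional binomial (ratios) at 95%. With 1 library per group and groups chosen on the counts, no test was made. The interval code was tested on simulated data.

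Named genes were the 15 highest and 15 lowest ratios among genes of at least 10 CPM with intervals leaving out equality, up to 4 members of each of 25 lists with the largest ratios, and fixed markers; Prdm14, Dppa3, Klf2, Klf5, Nr5a2, Nr0b1, Jam2, Stmn2, Utf1, Dppa4, Dnmt3a, Dnmt1, Spry2, Spry4, Bmp4 and the remaining endoderm list genes were added after their values were seen. The members and lists were chosen with earlier results of these data known. Per-cell values used cells thinned without replacement to 15000 UMIs; 0 kept cells were shallower. Phases followed the scanpy 1.11.5 rule, and TMM factors came from edgeR 4.0.16 in R 4.3.3. Doublets were not removed; cells above 2 times the median UMIs were left out in an alternative. Other alternatives changed the size of the extremes, the cell filters, the floor, the prior, the scaling, the weight of cells, the ranking depth and the free RNA taken from barcodes with 10 to 100 UMIs. Leaving out endoderm-rich cells, and thinning for the ranking or the comparison alone, were chosen after seeing the data. The software was Python 3.11.15, numpy 2.4.6, scipy 1.17.1, pandas 2.3.3 and matplotlib 3.10.9.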

Additional observations from a re-analysis of the deposited data

Results flagged for a closer look

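Gm17251, a noncoding gene, was higher in Nanog-low cells of the control (log2 ratio 0.98, interval 0.66 to 1.32) but lower in those of the 3 h cycloheximide library (-0.54, interval -1.10 to -0.0035), where its level was 5.88 against 8.58 CPM. Both 3 h levels were under 10 CPM, the value of the floor. Over the rank groups at 3 h it lay between 4.74 and 14.6 CPM with no steady order. Klf6, an immediate early zinc finger gene, stood at 0.61 (0.31 to 0.91) in the control and at -0.23 (-0.37 to -0.08) in the 6 h library, where it had 62.6 against 73.3 CPM. Each was singled out because its ratio had opposite signs in 2 libraries with counting intervals on opposite sides of 0. The differences between libraries were not tested.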

How the results depend on the processing

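The 48 named genes past 1.5-fold were picked from these same data, and several alternatives kept the same cells, so most signs were likely to hold. For them, 16 of the 19 alternatives moved any ratio (the 2 floors and the tie order did not). In these 16, 766 of 768 values kept their sign and 656 stayed past 1.5-fold, and 12 genes stayed past it throughout. The exceptions in sign were Id3 with cells thinned for ranking and comparing (-0.033) and Col4a1 without endoderm-rich cells (-0.52); for the first, the cause was not tested. The counts of genes higher and lower (44 and 196) became 96 and 394 with extremes of 5%, 13 and 65 with extremes of 20%, 71 and 120 with TMM factors, 27 and 331 with mean UMIs per cell, 10 and 47 with a floor of 50 CPM (fewer genes compared), 465 and 808 with a floor of 1 CPM (more genes), and 74 and 295 after subtraction of 10% free RNA. They were 13 and 37 with thinned counts used for ranking only and 110 and 356 with thinned counts used for comparing only, both chosen after seeing the data. Within assigned phases 128 genes were lower. The naive list median (-0.50) was -0.71 with extremes of 5%, -0.30 with ranking only on thinned counts and -0.75 with comparing only on them. The G2M median (-0.40) was -0.27 with cells thinned for the ranking, with or without thinned counts compared, and -0.24 within phases. The endoderm list median (0.39) was 0.75 with extremes of 5%, 0.030 with extremes of 20%, 0.078 with cells thinned for ranking and comparing, 0.026 for ranking only, -0.058 with a floor of 50 CPM, 1.57 with a floor of 1 CPM and -0.52 without endoderm-rich cells. No paired analysis was possible because each condition is 1 library and the labels carry no replicate numbers. With 9222829 and 9763769 UMIs in the groups, counting error is small for abundant genes but not for genes near the floor of 10 CPM. Without endoderm-rich cells, Aff1 (11.4 CPM in Nanog-low cells) had an interval of -1.54 to -0.86. The few Nanog UMIs per cell also limit the ranking.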
